A study of Mus musculus with 12 samples.

Results

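The fibroblast growth factor (FGF) genes examined here are 6 ligands, *Fgf2*, *Fgf5*, *Fgf7*, *Fgf9*, *Fgf10*, and *Fgf18*, and 4 receptors, *Fgfr1*, *Fgfr2*, *Fgfr3*, and *Fgfrl1*, chosen by symbol from the 51490 genes of the count table. All 10 were among the 15037 genes with enough counts to be tested, *Fgf9* only through the scramble samples. RNA-seq was performed on iMEPM cells, an immortalized line of mouse embryonic palatal mesenchyme from a male *Cdkn2a-/-* embryo, so that every group lacks *Cdkn2a*. Cells carried either a scramble shRNA or an shRNA against *Srsf3* (shSrsf3), both delivered by lentivirus, selected with puromycin, and sorted for GFP. After serum starvation they stayed without ligand (-PDGF-AA) or received PDGF-AA (10 ng/mL, 1 hr; +PDGF-AA), with n = 3 samples in each of the 4 groups. Each shRNA is represented by 1 stable line from 1 vector, so that the knockdown and other differences between the 2 lines cannot be told apart.

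FGF ligands are secreted proteins that bind receptor tyrosine kinases together with heparan sulfate chains on the cell surface. The bound receptors signal through the adaptor FRS2 to the Ras-MAPK cascade, which induces Etv transcription factors and the feedback inhibitors of the Sprouty and Dusp families. In the developing palate, *Fgf7* and *Fgf10* are made in the mesenchyme and act on the epithelial form of *Fgfr2*. Ligands such as *Fgf2*, *Fgf9*, and *Fgf18* act mainly on the receptor forms of the mesenchyme. Counts per gene do not separate the epithelial and mesenchymal splice forms of *Fgfr1*, *Fgfr2*, and *Fgfr3*, and in bulk samples fewer cells with a transcript cannot be told apart from less of it per cell.

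The total count per sample was between 30958870 and 76123207, lowest in the shSrsf3 +PDGF-AA group. The targeted gene, *Srsf3*, was at 206 ± 6.59 and 222 ± 8.07 CPM (counts scaled to the size of each library; SD, n = 3) in scramble cells without and with ligand, and at 162 ± 1.46 and 165 ± 4.33 CPM in shSrsf3 cells, with no overlap. All 12 mesenchyme markers were tested and together took 36544 to 42804 CPM, with lower sums in shSrsf3 than in scramble samples. Epithelial markers summed to 2.99 to 6.25 CPM, and *Esrp1*, a splicing regulator of epithelial cells, had no count. Markers of blood cells summed to at most 2.60 CPM, those of skeletal muscle to at most 0.579 CPM, and the defining genes *Tyrobp*, *Myod1*, *Sox10*, *Tie1*, and *Cldn5* had no count. The summed endothelial markers were at 30.6 to 34.7 CPM in scramble and 19.4 to 23.02 CPM in shSrsf3 samples, and the glial and neuronal markers at 29.5 to 33.1 and 21.8 to 27.2 CPM. Single genes of these lists went both ways, since *Cdh5* and *Kdr* were higher in shSrsf3 cells (log2 fold changes of 2.33 and 1.24 without ligand) while *Tek* was lower (-0.61), and *Stmn2* was higher (1.124) while *Tubb3* was lower (-0.57). The part of these low signals in the results on FGF genes was not tested.

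Positions of the 10 genes are given on GRCm39 from GENCODE M39. *Fgf10* is on chromosome 13 (118806327 to 118928672, plus strand), *Fgf7* on chromosome 2 (125876578 to 125934218, plus strand), and *Fgf9* on chromosome 14 (58308004 to 58350316, plus strand). Chromosome 5 holds *Fgf5* (98401780 to 98452320), *Fgfr3* (33879018 to 33894412), and *Fgfrl1* (108840206 to 108858366), all on the plus strand. *Fgfr1* is on chromosome 8 (26003670 to 26066824, plus strand), and the main transcript of *Fgfr2* is on chromosome 7 (129763471 to 129868272, minus strand). *Fgf2* is on chromosome 3 (37402473 to 37464257, plus strand), where *Nudt6* lies on the opposite strand, and *Fgf18* is on chromosome 11 (33067014 to 33097828, minus strand). At most 3.24% of the 31-base sequences in the transcripts of a member also occur in those of another gene.

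The sequences before the start sites are shown for the 3 ligands that were higher in shSrsf3 cells in both ligand states. That of *Fgf9*, for which no test is given, is shown as well. All are the 250 bases upstream of each start in RefSeq, on the gene's own strand (GRCm38.p6, an older build than the positions above). They are in lower case with GC boxes (GGGCGG on either strand) in capitals. The *Fgf10* sequence is chr13:118714449-118714698, the *Fgf5* sequence chr5:98253934-98254183, the *Fgf7* sequence chr2:126034408-126034657, and the *Fgf9* sequence chr14:58072436-58072685.
Fgf10: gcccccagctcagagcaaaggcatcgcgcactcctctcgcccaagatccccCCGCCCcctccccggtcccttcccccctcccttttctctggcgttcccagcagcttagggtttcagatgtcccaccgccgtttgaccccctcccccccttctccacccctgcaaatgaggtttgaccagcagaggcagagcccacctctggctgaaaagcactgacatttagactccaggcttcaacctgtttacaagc
Fgf5: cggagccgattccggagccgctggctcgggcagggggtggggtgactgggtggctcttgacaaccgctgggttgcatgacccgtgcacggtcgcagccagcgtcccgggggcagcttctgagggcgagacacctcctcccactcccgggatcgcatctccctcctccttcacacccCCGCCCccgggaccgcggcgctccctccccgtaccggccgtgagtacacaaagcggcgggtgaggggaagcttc
Fgf7: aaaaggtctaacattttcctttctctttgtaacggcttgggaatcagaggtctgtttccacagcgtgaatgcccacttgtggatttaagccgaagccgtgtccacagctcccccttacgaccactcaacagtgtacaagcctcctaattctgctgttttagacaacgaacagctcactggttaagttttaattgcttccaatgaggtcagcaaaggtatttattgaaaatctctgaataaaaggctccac
Fgf9: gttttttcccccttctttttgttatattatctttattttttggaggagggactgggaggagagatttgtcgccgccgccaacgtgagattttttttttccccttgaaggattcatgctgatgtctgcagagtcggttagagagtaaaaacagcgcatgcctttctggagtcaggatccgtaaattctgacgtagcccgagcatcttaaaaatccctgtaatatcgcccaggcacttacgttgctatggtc

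RefSeq holds 10 such sequences for 9 of the members, 2 of them for *Fgfr3* and none for *Fgfr1*. The GC content was 61.2% for *Fgf10* and 70.8% for *Fgf5*, but 43.6% for *Fgf7* and 44.8% for *Fgf9*, against a median of 52.4% over 32851 promoters. A GC box stood in 7 of the 10 sequences and in 32.7% of all promoters. The EGR motif GCGGGGGCG stood before *Fgf2*, *Fgfr3*, and *Fgfrl1* and in 2.57% of all promoters, overlapping a GC box in *Fgf2* and *Fgfrl1*. The ETS motif CCGGAAGT was found for *Fgfrl1* alone among the members (2.88% of all promoters). None of the 10 held the TATA box TATAAA (12.4%), the AP-1 motif TGACTCA (4.46%), the cyclic AMP response element TGACGTCA (1.55%), or the SMAD motif GTCTAGAC (0.167%). These matches describe letters in the windows and no binding was measured.

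To see which FGF genes are used most by these cells, levels were compared as CPM per kb of the main transcript (the plot of levels per transcript length). *Fgf7* was by far the most abundant ligand, at 115 ± 7.26 CPM per kb in scramble -PDGF-AA samples, followed by *Fgf18* (2.62 ± 0.429), *Fgf2* (1.32 ± 0.0755), *Fgf10* (0.518 ± 0.0527), *Fgf5* (0.231 ± 0.0327), and *Fgf9* (0.101 ± 0.0261; SD, n = 3). Among the receptors, *Fgfr1* was at 55.9 ± 0.456, *Fgfr2* at 7.65 ± 0.197, the kinase-lacking receptor *Fgfrl1* at 6.79 ± 0.404, and *Fgfr3* at 0.316 ± 0.0354 CPM per kb. No neighbours in this order overlapped between the 3 samples, but the order of *Fgfr2* and *Fgfrl1* reversed when the length of all merged exons was used (3.81 and 5.99 CPM per kb).

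**Figure D1:**
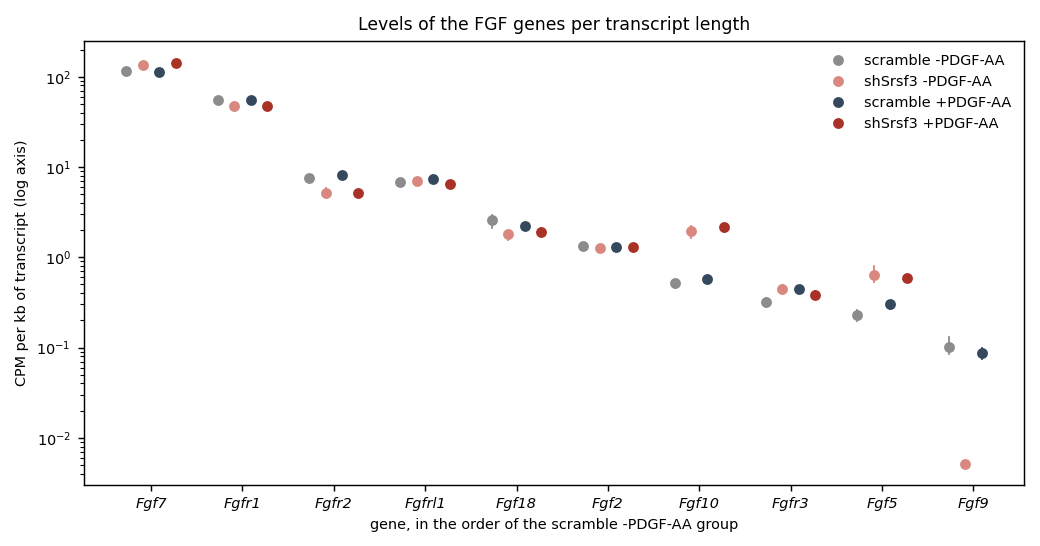
Mean level of each FGF gene in the 4 groups, in CPM per kb of the main transcript on a log axis. A vertical line gives the range of the 3 samples where it exceeds the point. *Fgf9* in shSrsf3 -PDGF-AA cells has a point without a line, since its range (0 to 0.0096) includes 0. *Fgf7* and *Fgfr1* lead in all 4 groups, *Fgf10* moves from the seventh place in the scramble groups to the fifth in the shSrsf3 groups, and *Fgf9* has no point in shSrsf3 +PDGF-AA cells, where its count was 0.

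*Fgf7* made up nearly all of the summed ligand level per kb, with group means from 96.0% to 96.2%. *Fgfr1* made up 79.1% ± 0.389 of the summed receptor level in scramble cells without ligand, and between 77.4% and 79.8% in the other groups. In shSrsf3 cells the order differed from that of scramble cells at 3 places. *Fgf10* stood above *Fgf18* and *Fgf2*, at 1.96 ± 0.285 and 2.15 ± 0.223 CPM per kb without and with ligand, and its ranges overlapped with those of *Fgf18*. *Fgfrl1* stood above *Fgfr2*, at 6.93 ± 0.349 against 5.21 ± 0.510 CPM per kb without ligand and 6.51 ± 0.232 against 5.185 ± 0.180 with ligand. With the length of all merged exons *Fgfrl1* stood above *Fgfr2* in all 4 groups, so that this place then did not differ between the lines. *Fgf5* stood above *Fgfr3*, at 0.631 ± 0.145 against 0.448 ± 0.0446 CPM per kb without ligand.

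The effect of the *Srsf3* shRNA was compared first in cells without ligand. *Fgf9*, with at most 3 counts in any shSrsf3 sample, is left out of the counts that follow and is described by its own counts. Of the other 9 FGF genes, 4 were higher in shSrsf3 cells (*Fgf5*, *Fgf7*, *Fgf10*, and *Fgfr3*), 3 were lower (*Fgf18*, *Fgfr1*, and *Fgfr2*), and 2 did not pass the test (*Fgf2* and *Fgfrl1*), at an adjusted p of 0.05 or less from edgeR's quasi-likelihood test. These counts stand against a wide change of the transcriptome, since 45.9% of all tested genes passed the same test, 22.2% higher and 23.7% lower. A fold change of at least 2 as well was reached by 2 members (*Fgf5* and *Fgf10*) and by 5.75% of all tested genes. The groups did not overlap for 7 members and for 53.3% of all genes. The median log2 fold change was 0.03 over the 9 members and -0.02 over all genes.

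With ligand, 3 of the 9 members were higher in shSrsf3 than in scramble cells (*Fgf5*, *Fgf7*, and *Fgf10*), 3 were lower (*Fgfr1*, *Fgfr2*, and *Fgfrl1*), and 3 did not pass the test (*Fgf2*, *Fgf18*, and *Fgfr3*). In this comparison 41% of all tested genes passed, 20.3% higher and 20.7% lower. Both the test and a 2-fold change were met by 1 member, *Fgf10*, and by 5.42% of all genes, and groups did not overlap for 6 members and 52.6% of all genes. The median log2 fold change was -0.18 over the 9 members and -0.01 over all genes.

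**Figure D2:**
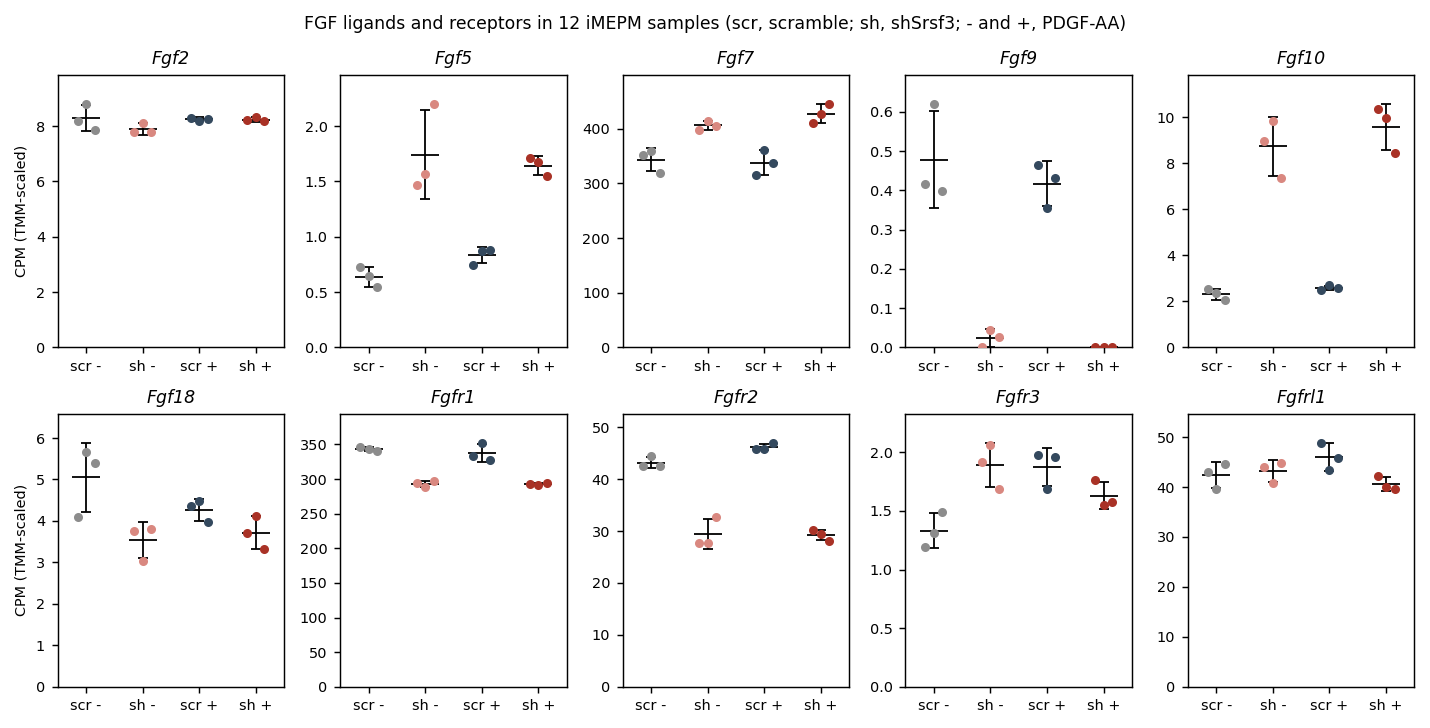
CPM of each FGF gene in every sample (points), with the mean and SD of the 3 samples of each group (bars), on linear axes that start at 0 and differ between panels. *Fgf5*, *Fgf7*, and *Fgf10* sit higher in both shSrsf3 groups than in the scramble groups, *Fgf9*, *Fgfr1*, and *Fgfr2* sit lower, and *Fgf2* lies between 7.77 and 8.80 CPM in all 12 samples.

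*Fgf10*, the mesenchymal ligand without which palate and limb fail to form normally, had the largest increase. It was at 2.52, 2.34, and 2.06 CPM in the scramble -PDGF-AA samples and at 8.99, 9.86, and 7.36 CPM in the shSrsf3 -PDGF-AA samples. With ligand, scramble samples were at 2.49, 2.69, and 2.57 CPM and shSrsf3 samples at 10.3, 9.97, and 8.46 CPM. Every shSrsf3 sample was therefore far above every scramble sample. The increase was 3.84-fold without ligand (log2 fold change 1.94 ± 0.122 SE, edgeR adjusted p = 3.45e-08) and 3.72-fold with ligand (1.89 ± 0.119, edgeR adjusted p = 3.75e-08), and it was among the called changes under all alternatives tried.

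*Fgf7*, or keratinocyte growth factor, binds the same epithelial receptor form as *Fgf10* and rose by much less from a far higher level. Scramble samples were at 353, 359, and 319 CPM without ligand and 315, 360, and 337 CPM with ligand. The shSrsf3 samples were at 398, 415, and 406 CPM without ligand and 410.1, 427, and 446 CPM with ligand, above all scramble samples. *Fgf7* rose 1.18-fold without ligand (log2 fold change 0.24 ± 0.0543 SE, edgeR adjusted p = 0.00250) and 1.27-fold with ligand (0.34 ± 0.0544, edgeR adjusted p = 2.06e-04). The ratio of *Fgf7* to *Fgf10* per kb was thus 224 ± 12.3 in scramble and 70.7 ± 10.5 in shSrsf3 cells without ligand, and 195 ± 5.69 and 67.4 ± 10.1 with ligand (SD, n = 3), with no overlap between the lines.

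*Fgf5*, a ligand known for ending the growth phase of hair follicles, was scarce but rose as well. It had 0.727, 0.644, and 0.547 CPM in scramble -PDGF-AA samples (28, 28, and 33 counts) and 1.46, 1.56, and 2.20 CPM in shSrsf3 -PDGF-AA samples (113, 103, and 82 counts). With ligand it was at 0.747, 0.868, and 0.881 CPM in scramble samples and at 1.71, 1.67, and 1.54 CPM in shSrsf3 samples. The groups did not overlap in either ligand state. The increase was 2.71-fold without ligand (log2 fold change 1.44 ± 0.202 SE, edgeR adjusted p = 6.61e-05) and 1.97-fold with ligand (0.98 ± 0.197, edgeR adjusted p = 0.00129).

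*Fgf9*, which acts on mesenchymal receptor forms, was nearly lost from shSrsf3 cells. Its counts were 16, 27, and 24 in scramble -PDGF-AA samples and 0, 3, and 1 in shSrsf3 -PDGF-AA samples. With ligand they were 28, 20, and 28 in scramble samples, while all 3 shSrsf3 samples had no count. No shSrsf3 sample reached the lowest scramble sample, in CPM (0.354) or in counts. Without ligand, the 67 scramble counts against 4 corresponded to a 21.2-fold lower level in shSrsf3 cells (95% interval 7.91 to 80.2, exact conditional binomial, for counting error only). With ligand, *Fgf9* was at least 4.64-fold lower, taking 3 counts per library as the limit that a count of 0 allows (0.0802 to 0.0966 CPM). Since *Fgf9* passed the count filter through the scramble samples alone, no test is given for it. *Cdh1*, the E-cadherin gene of epithelial cells, was lower in the same samples, the only call among 3 tested epithelial markers. It was at 2.36 ± 0.0271 and 0.484 ± 0.0936 CPM without ligand and 2.17 ± 0.593 and 0.563 ± 0.111 CPM with ligand (SD, n = 3). The other tested markers overlapped between the lines and did not pass. Without and with ligand, *Epcam* had log2 fold changes of -0.22 and -0.44 and *Trp63* of -0.10 and -0.21. The part of *Cdh1* in the change of *Fgf9* was not tested.

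*Fgf18*, a ligand that promotes bone and cartilage growth, was at 4.10, 5.66, and 5.39 CPM in scramble and 3.77, 3.04, and 3.81 CPM in shSrsf3 samples without ligand. These groups did not overlap, although replicate 1 of the scramble group lay close to the shSrsf3 samples. The log2 fold change was -0.52 ± 0.131 SE (edgeR adjusted p = 0.00519). With ligand, scramble samples were at 4.35, 4.48, and 3.97 CPM and shSrsf3 samples at 3.71, 4.12, and 3.315 CPM, and these groups overlapped. The log2 fold change there was -0.20 (95% interval -0.49 to 0.10) with an edgeR adjusted p of 0.274, and the difference between the 2 changes did not pass the test either (0.33, 95% interval -0.08 to 0.73).

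*Fgf2*, the broadly acting basic FGF, was at 7.77 to 8.80 CPM in the 12 samples, and its groups overlapped in both ligand states. Its log2 fold change between the lines was -0.07 without ligand (95% interval -0.19 to 0.06) and -0.003 with ligand (-0.13 to 0.13). The libraries were stranded, and whether the counting used strand, which bears on *Nudt6* opposite to *Fgf2*, is not given in the sources used here.

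*Fgfr1*, the main receptor of mesenchyme, was at 346, 343, and 341 CPM in scramble and 294, 288, and 297 CPM in shSrsf3 samples without ligand, and at 333, 352, and 327 CPM against 292, 291, and 294 CPM with ligand. The lines did not overlap, and the spread within shSrsf3 +PDGF-AA samples was only 1.49 CPM (SD). *Fgfr1* fell by 0.23 ± 0.0335 SE on the log2 scale without ligand (edgeR adjusted p = 9.98e-05) and by 0.21 ± 0.0335 with ligand (edgeR adjusted p = 2.51e-04).

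*Fgfr2*, the receptor of *Fgf7* and *Fgf10* in its epithelial form, had 42.5, 44.5, and 42.6 CPM in scramble -PDGF-AA samples and 27.7, 27.8, and 32.7 CPM in shSrsf3 -PDGF-AA samples. With ligand it had 45.9, 45.7, and 46.9 CPM in scramble and 30.1, 29.5, and 28.1 CPM in shSrsf3 samples. All 6 shSrsf3 samples were below all 6 scramble samples. *Fgfr2* fell by 0.56 ± 0.0563 SE on the log2 scale without ligand (edgeR adjusted p = 3.02e-06) and by 0.66 ± 0.0572 with ligand (edgeR adjusted p = 8.10e-07). The ratio of *Fgfr1* to *Fgfr2* per kb was 7.31 ± 0.205 in scramble and 9.22 ± 0.762 in shSrsf3 cells without ligand, and 6.71 ± 0.339 and 9.20 ± 0.364 with ligand (SD, n = 3).

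*Fgfr3*, a receptor known for its restraint of growth plate cartilage, was scarce, with 46 to 148 counts per sample. It was at 1.195, 1.31, and 1.49 CPM in scramble and 1.92, 2.07, and 1.69 CPM in shSrsf3 samples without ligand, groups that did not overlap (log2 fold change 0.50 ± 0.148 SE, edgeR adjusted p = 0.0132). This call was lost when the 3 samples with the lowest mapping rates, replicates 1 and 2 of scramble -PDGF-AA and replicate 2 of scramble +PDGF-AA, were left out (0.35, edgeR adjusted p = 0.200), when all libraries were thinned to the smallest total (0.38, edgeR adjusted p = 0.164), and without replicate 2 of shSrsf3 -PDGF-AA (0.44, edgeR adjusted p = 0.0589). With ligand, scramble samples were at 1.98, 1.68, and 1.96 CPM and shSrsf3 samples at 1.76, 1.55, and 1.58 CPM, which overlapped (-0.20, 95% interval -0.52 to 0.12).

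*Fgfrl1*, which binds FGFs but lacks the kinase domain, was at 42.9, 39.7, and 44.6 CPM in scramble and 44.1, 40.8, and 44.9 CPM in shSrsf3 samples without ligand (log2 fold change 0.03, 95% interval -0.10 to 0.15). With ligand it was at 48.8, 43.4, and 45.8 CPM in scramble and 42.3, 40.0, and 39.7 CPM in shSrsf3 samples, which did not overlap (-0.18 ± 0.0572 SE, edgeR adjusted p = 0.0231). That call was lost when replicate 1 or 3 of scramble +PDGF-AA or replicate 2 or 3 of shSrsf3 +PDGF-AA was left out, with log2 fold changes of -0.13, -0.18, -0.17, and -0.16 and edgeR adjusted p from 0.0501 to 0.100. The ratio of *Fgfr2* to *Fgfrl1* per kb was 1.13 ± 0.0970 in scramble and 0.752 ± 0.0558 in shSrsf3 cells without ligand, and 1.11 ± 0.0656 and 0.797 ± 0.0180 with ligand (SD, n = 3).

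**Figure D3:**
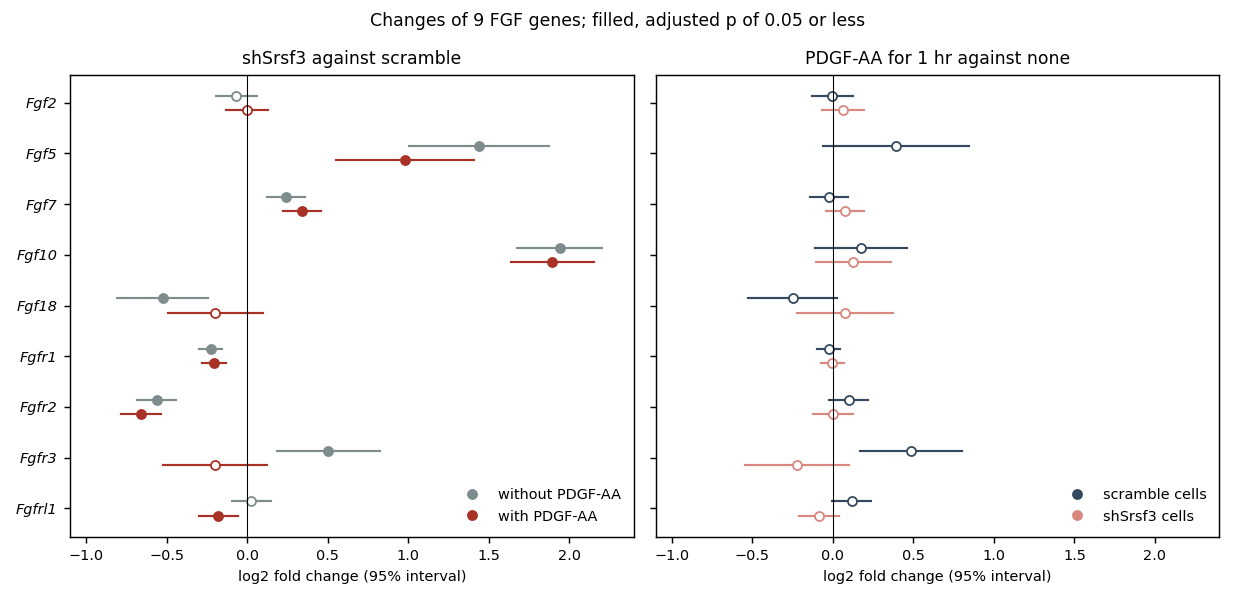
Log2 fold changes of 9 FGF genes with 95% intervals, between shSrsf3 and scramble cells (left) and between +PDGF-AA and -PDGF-AA cells (right), with filled points at an adjusted p of 0.05 or less. *Fgf9* is left out because its count was 0 in all shSrsf3 +PDGF-AA samples. The ligand change of *Fgf5* in shSrsf3 cells is not drawn (-0.06, edgeR adjusted p = 0.997). *Fgf10* and *Fgf5* lie farthest to the right on the left side, and no point on the right side is filled.

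The response to PDGF-AA for 1 hr was examined next. In scramble cells none of the 9 FGF genes other than *Fgf9* passed edgeR's test, against 4.04% of all tested genes. None met a 2-fold change as well, against 0.2%. At an unadjusted p under 0.05 there was 1 of the 9 members, *Fgfr3*, against 2643 of the 15037 genes tested. DESeq2 and limma-voom also called 0 members. Groups did not overlap for 3 members, *Fgf5*, *Fgfr2*, and *Fgfr3*, which were higher with ligand, and for 18.8% of all genes. *Fgfr3* was at 1.195, 1.31, and 1.49 CPM without and 1.98, 1.68, and 1.96 CPM with ligand (log2 fold change 0.48, 95% interval 0.17 to 0.80, edgeR adjusted p = 0.0919). Without replicate 3 of scramble -PDGF-AA it passed (0.59, edgeR adjusted p = 0.0463).

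In the same cells the intervals of the other members included 0. The log2 fold change was -0.03 for *Fgf7* (95% interval -0.14 to 0.09), -0.03 for *Fgfr1* (-0.10 to 0.05), -0.004 for *Fgf2* (-0.13 to 0.12), 0.10 for *Fgfr2* (-0.02 to 0.22), and 0.12 for *Fgfrl1* (-0.01 to 0.24). For the scarcer ligands the intervals were wider, at 0.17 for *Fgf10* (-0.11 to 0.46), -0.25 for *Fgf18* (-0.53 to 0.03), and 0.39 for *Fgf5* (-0.06 to 0.85). *Fgf9* was at 0.478 ± 0.124 CPM without and 0.417 ± 0.0569 CPM with ligand (SD, n = 3). A change of 2-fold lay outside each of the intervals given. The median log2 fold change was 0.10 over the 9 members other than *Fgf9* and -0.01 over all genes.

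In shSrsf3 cells, too, none of these 9 members passed the test after 1 hr of ligand, against 0.565% of all tested genes, with 0.0399% at 2-fold or more. No member had an unadjusted p under 0.05, against 1420 of the 15037 genes tested, and DESeq2 and limma-voom called 0. Groups did not overlap for 1 member, *Fgf2*, at 7.77, 8.12, and 7.79 CPM without and 8.20, 8.33, and 8.18 CPM with ligand (log2 fold change 0.06, 95% interval -0.07 to 0.19), and for 18% of all genes. *Fgfr3* was at 1.92, 2.07, and 1.69 CPM without and 1.76, 1.55, and 1.58 CPM with ligand, which overlapped (-0.22, 95% interval -0.54 to 0.10). The log2 fold change was -0.06 for *Fgf5*, 0.07 for *Fgf7*, 0.13 for *Fgf10*, and 0.08 for *Fgf18*. It was -0.003 for *Fgfr1*, 0.0007 for *Fgfr2*, and -0.09 for *Fgfrl1*, and all these groups overlapped. The median log2 fold change was 0.000683 over the 9 members other than *Fgf9* and -0.00436 over all genes.

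Whether the effect of the shRNA differed between the ligand states was tested as an interaction in the same model. None of the 9 FGF genes other than *Fgf9* passed, against 0.0133% of all tested genes, which is 2 genes. The members with an unadjusted p under 0.05 were 2 of these 9, against 833 of the 15037 genes tested. For *Fgfr3* the difference of the 2 effects was -0.70 ± 0.210 SE on the log2 scale (edgeR adjusted p = 0.702), and for *Fgfrl1* it was -0.20 ± 0.0805 (edgeR adjusted p = 0.874). A call of *Fgf18*, *Fgfr3*, or *Fgfrl1* in 1 ligand state and not in the other was therefore not shown to be a difference between the states. For *Fgf10* the difference was -0.05 (95% interval -0.42 to 0.32) and for *Fgf7* it was 0.10 (-0.07 to 0.26).

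The other FGF genes of the mouse were mostly at or near a count of 0 in these cells. Of 19 further ligands, receptors, and Klotho co-receptors in the table, 14 did not reach the count needed for a test, with group means of at most 0.110 CPM, and *Fgf4* and *Fgf12* had no count. The 5 that were tested were *Fgf1*, *Fgf11*, *Fgf13*, *Fgf21*, and *Fgfr4*, none of which had a group mean above 1.58 CPM. *Fgf13*, an intracellular member of the family that is not secreted, was at 0.493 ± 0.0943 CPM in scramble and 0.147 ± 0.0113 CPM in shSrsf3 cells without ligand and at 0.469 ± 0.0779 and 0.103 ± 0.0677 CPM with ligand (SD, n = 3), with no overlap. It fell by 1.72 and 2.20 on the log2 scale. Its summed counts were 71 in scramble and 27 in shSrsf3 cells without ligand, and 85 and 10 with ligand. The level in shSrsf3 cells was 3.33-fold (interval 2.11 to 5.40) and 4.72-fold (2.45 to 10.2) lower, with intervals for counting error only. Like *Fgf9*, *Fgf13* passed the count filter through the scramble samples alone, so no test is given for it. *Fgf11*, of the same intracellular group, had a log2 value of -1.28 without ligand (0.425 ± 0.0669 against 0.161 ± 0.0722 CPM, with no overlap). With ligand it had -0.64, and the groups overlapped. Its level in shSrsf3 cells without ligand was nearly as low as that of *Fgf13*, so no test is given for it either. *Fgf21*, a hormone-like FGF, had -0.05 and -0.25, *Fgf1* 0.03 and 0.83, and *Fgfr4* 1.05 and 1.24, with edgeR adjusted p of 0.0961 or more.

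Genes that shape how FGFs are held and presented at the cell surface moved in both directions. Of 28 tested genes for heparan sulfate and FGF-binding cofactors, 5 were higher and 13 lower in shSrsf3 cells without ligand, where 22.2% of all genes were higher and 23.7% lower, and the median log2 fold change was -0.09 (-0.02 over all genes). With ligand 7 were higher and 12 lower, against 20.3% and 20.7% of all genes, with a median of -0.08 (-0.01 over all genes). *Sulf2*, which removes 6-O-sulfate groups from heparan sulfate, was at 440 ± 1.88 CPM in scramble and 260 ± 3.51 CPM in shSrsf3 cells without ligand (log2 fold change -0.76, edgeR adjusted p = 1.64e-09), and at 433 ± 17.3 and 268 ± 5.61 CPM with ligand (-0.69, edgeR adjusted p = 4.06e-09). *Hs6st1*, which adds these 6-O-sulfate groups, fell too, by 0.55 without ligand (109 ± 3.16 against 74.6 ± 1.66 CPM; edgeR adjusted p = 5.37e-08) and by 0.62 with ligand (edgeR adjusted p = 2.00e-08).

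The N-sulfating enzyme *Ndst1* rose from 91.7 ± 5.78 to 138 ± 6.68 CPM without ligand (log2 fold change 0.59, edgeR adjusted p = 4.93e-07) and was 0.64 higher with ligand. The glypican gene *Gpc2* fell from 8.60 ± 0.562 to 5.02 ± 0.474 CPM without ligand (-0.77, edgeR adjusted p = 1.73e-04) and had -0.63 with ligand (edgeR adjusted p = 0.00154). None of these 28 genes was changed 2-fold. Upon ligand in scramble cells 1 of the 28 passed, the syndecan gene *Sdc4*, at 207 ± 6.32 CPM without and 252 ± 6.82 CPM with ligand (0.28, edgeR adjusted p = 0.00186), and none passed in shSrsf3 cells, where *Sdc4* had 0.11 (edgeR adjusted p = 0.381).

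Of 24 adaptors and signal transducers downstream of the receptors, 10 were higher and 6 lower in shSrsf3 cells without ligand (22.2% and 23.7% of all genes), and 5 were higher and 5 lower with ligand (20.3% and 20.7% of all genes), with medians of 0.01 and 0.03 on the log2 scale. With ligand the 10 of 24 called were close to the 41% of all genes. None reached 2-fold. *Gab1*, a docking protein of receptor tyrosine kinases, was at 50.1 ± 0.693 CPM in scramble and 35.2 ± 1.84 CPM in shSrsf3 cells without ligand (log2 fold change -0.51, edgeR adjusted p = 4.96e-07) and 44.7 ± 0.942 and 34.0 ± 1.01 CPM with ligand (-0.39, edgeR adjusted p = 7.90e-06). It was also the 1 gene of this list that changed upon ligand in scramble cells (-0.17, edgeR adjusted p = 0.0438). *Mapk3*, or Erk1, rose by 0.26 and 0.39, the PI3K subunit gene *Pik3r1* by 0.22 and 0.29, and *Map2k1*, the kinase that activates Erk, by 0.27 and 0.15 on the log2 scale without and with ligand.

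The genes known as targets or feedback inhibitors of FGF receptor signaling, which other receptors including PDGFRα also induce, were then described (the plot of targets). All 20 were tested. In shSrsf3 cells without ligand 10 were higher and 4 lower, against 22.2% and 23.7% of all genes, with a median log2 fold change of 0.33 (-0.02 over all genes). With ligand 9 were higher and 5 lower, against 20.3% and 20.7% of all genes, with a median of 0.18 (-0.01 over all genes). Those higher in both states were *Spry2*, *Dusp4*, *Dusp6*, *Etv1*, *Etv4*, *Etv5*, *Egr1*, and *Ier2*, and those lower in both were *Il17rd*, *Ccnd1*, and *Myc*.

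**Figure D4:**
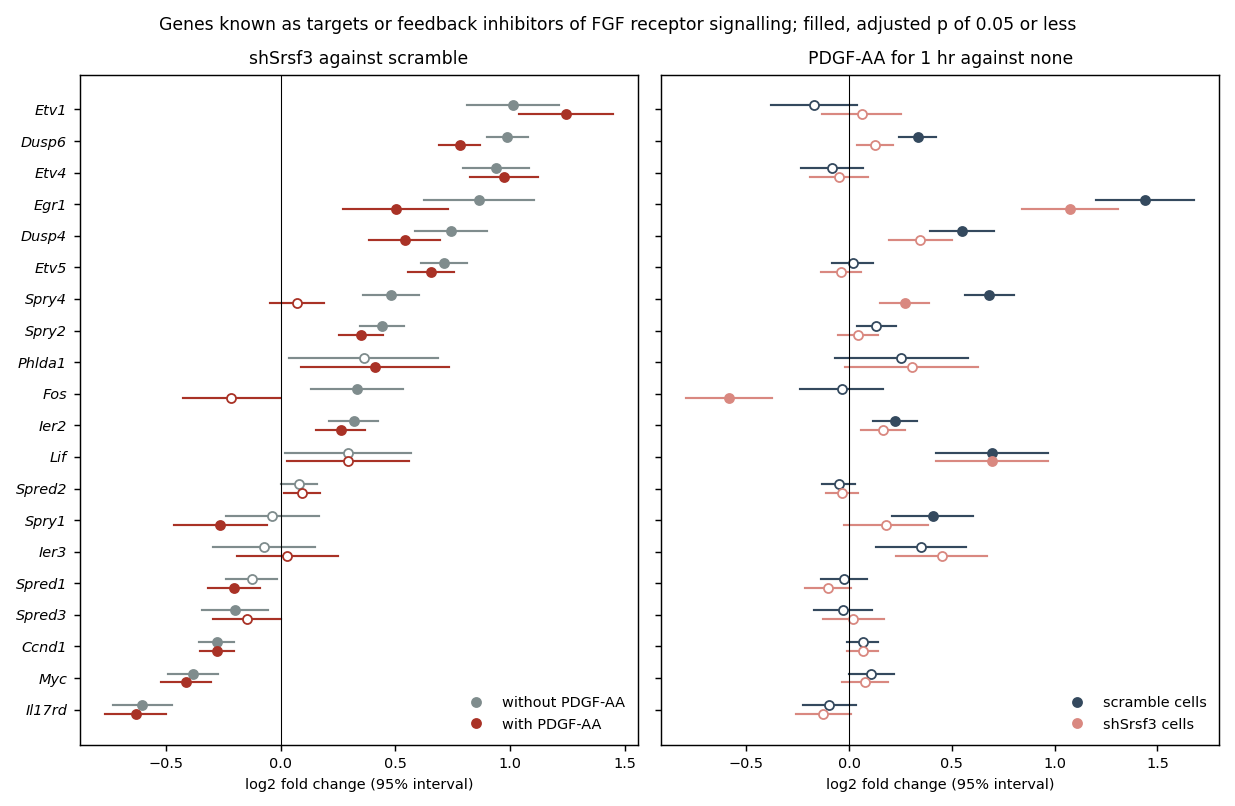
Log2 fold changes with 95% intervals of 20 genes known as FGF targets or feedback inhibitors, between shSrsf3 and scramble cells (left) and between +PDGF-AA and -PDGF-AA cells (right), with filled points at an adjusted p of 0.05 or less. *Etv1*, *Dusp6*, and *Etv4* lie at the top on the left side, while on the right side *Egr1*, *Lif*, and *Spry4* lie farthest from 0 in scramble cells.

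*Etv1*, an ETS factor induced by FGF, was at 5.56, 6.12, and 5.30 CPM in scramble and 10.5, 11.7, and 12.1 CPM in shSrsf3 samples without ligand (log2 fold change 1.01, edgeR adjusted p = 1.29e-06) and rose by 1.24 with ligand (edgeR adjusted p = 2.27e-07). *Etv4*, of the same subfamily, was at 7.46, 8.46, and 7.81 CPM in scramble and 15.4, 14.2, and 15.9 CPM in shSrsf3 samples without ligand (0.94, edgeR adjusted p = 1.15e-07) and rose by 0.98 with ligand (edgeR adjusted p = 1.03e-07). Neither overlapped between the lines. Upon ligand, *Etv1* and *Etv4* had values of -0.17 and -0.08 in scramble cells (edgeR adjusted p = 0.390 and 0.574).

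*Dusp6*, a phosphatase that inactivates Erk, was higher in shSrsf3 cells without ligand (34.7, 35.5, and 37.0 against 70.1, 72.8, and 70.0 CPM; log2 fold change 0.99, edgeR adjusted p = 8.84e-10) and with ligand (0.78, edgeR adjusted p = 7.44e-09). It also rose upon ligand in scramble cells, to 44.9, 43.6, and 46.6 CPM (0.33, edgeR adjusted p = 5.31e-04). In shSrsf3 cells its ligand value was 0.13 (edgeR adjusted p = 0.278). The immediate early factor *Egr1* rose upon ligand in both lines, from 29.3 ± 3.07 to 79.4 ± 13.1 CPM in scramble (1.44, edgeR adjusted p = 9.66e-06) and from 53.4 ± 4.59 to 112 ± 8.78 CPM in shSrsf3 cells (1.08, edgeR adjusted p = 2.84e-04). *Spry4*, a Sprouty inhibitor, rose by 0.68 in scramble (edgeR adjusted p = 1.40e-05) and by 0.27 in shSrsf3 cells (edgeR adjusted p = 0.0467). In all, 7 of the 20 rose and none fell upon ligand in scramble cells, where 4.04% of all genes passed. In shSrsf3 cells, where 0.565% of all genes passed, 3 rose and 1 fell (*Fos*, -0.58, edgeR adjusted p = 0.0128), while none passed the interaction test.

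FGF signals in the palate are exchanged with epithelial *Shh* and with mesenchymal transcription factors. Of 14 genes of this exchange 11 were tested, and *Shh* and *Tbx22* had no count in these cells. In shSrsf3 cells 3 were higher and 5 lower without ligand, where 45.9% of all genes passed, and 3 higher and 3 lower with ligand, where 41% passed, with medians of -0.05 and -0.03 on the log2 scale. *Shox2*, a homeobox gene of the anterior palate, was at 4.55, 3.61, and 3.497 CPM in scramble and 13.3, 12.8, and 13.0 CPM in shSrsf3 samples without ligand (log2 fold change 1.76, edgeR adjusted p = 3.19e-09), and was 2.04 higher with ligand (edgeR adjusted p = 1.14e-09). *Msx1*, whose loss causes cleft palate, fell from 1.70 ± 0.144 to 0.897 ± 0.113 CPM without ligand (-0.93, edgeR adjusted p = 0.00159) and from 1.55 ± 0.268 to 0.719 ± 0.152 CPM with ligand (-1.101, edgeR adjusted p = 8.78e-04).

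*Pax9*, another palate factor, fell by 0.76 and 0.70 on the log2 scale without and with ligand, and *Barx1* rose by 0.43 and 0.60. Upon ligand in scramble cells *Pax9* fell from 17.7 ± 0.627 to 14.4 ± 0.716 CPM (-0.30, edgeR adjusted p = 0.0111), the 1 gene of this list that passed, and it had -0.24 in shSrsf3 cells (edgeR adjusted p = 0.1498). Of the 12 mesenchyme markers, 2 were higher and 4 lower in shSrsf3 cells in both ligand states, near the 45.9% and 41% of all genes that passed. *Pdgfra*, the receptor of PDGF-AA, fell by 0.53 and 0.36 in shSrsf3 cells without and with ligand, *Col1a2* fell by 0.37 and 0.40, *Prrx2* fell by 0.36 and 0.29, and *Twist2* rose by 0.55 and 0.58 on the log2 scale. Upon ligand in scramble cells 2 of the 12 markers passed, against 4.04% of all genes. Both fell, *Pdgfra* by 0.30 (edgeR adjusted p = 0.00764) and *Prrx1* by 0.16 (edgeR adjusted p = 0.0435), while none passed in shSrsf3 cells.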

How the data were processed

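RNA-seq of poly(A) RNA was performed on 12 samples, 3 per group, described by the study as independent biological replicates. The authors trimmed reads with BBDuk, quantified them with Salmon (1.4.0) against GENCODE M26 (GRCm39), summarised them per gene with tximport, and deposited the expected counts, of which 16.3% were not whole numbers. The processing notes also name STAR (2.7.9a) and DESeq2 (1.32.0). Here, counts were rounded and fitted in edgeR (4.0.16, R 4.3.3) by the quasi-likelihood test in 1 model of 4 group means, after TMM scaling and filterByExpr with a minimum count of 10, with Benjamini-Hochberg adjustment over all 15037 genes tested. Levels are TMM-scaled CPM, with totals of 30958870 to 76123207 counts per sample. The limit for a count of 0 was 3 counts, and intervals on counts are at 95% and cover counting error only. An exact permutation test of 3 against 3 samples cannot go below p = 0.1 and was not used.

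Named genes were all members, every tested gene among the other FGFs, up to 4 genes of each further list with the largest change among those called in both ligand states, and up to 3 with the smallest adjusted p upon ligand. *Fos* was named after its value was seen. Of the markers of other cell types only those that touch a result are named. The members and lists were chosen with earlier results of these data known. Alternatives were DESeq2 (1.42.0), limma-voom (limma 3.58.1), DESeq2 size factors, no filter, a replicate block, each sample left out, 9 samples, 2 groups only, and thinned libraries. Promoters came from RefSeq (GRCm38.p6).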

Additional observations from a re-analysis of the deposited data

How the results depend on the processing

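Of the 13 changes of members other than *Fgf9* that passed edgeR's test, 11 kept their call and direction under every alternative run, and the exceptions were *Fgfr3* without ligand and *Fgfrl1* with ligand, whose values are given above. Over these 13 changes, 253 of 260 alternative values kept the call, 7 lost it, and 0 changed sign. Scarce members such as *Fgf5*, *Fgf9*, and *Fgfr3* are limited by their counts, and the cause of the differences below was not tested.

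The genes called upon ligand in scramble cells (608, with 30 at 2-fold) were 1289 and 121 with no low-count filter and 247 with only the 2 groups compared in the fit. In shSrsf3 cells the 85 and 6 genes were 374 and 65 with no filter, 213 by DESeq2, 231 in 9 samples, and 201 with 2 groups. The 2 interaction genes were 26 by DESeq2, 218 with no filter, 16 in 9 samples, and 1 with thinned libraries. Leaving out 1 sample at a time gave 0 to 1 members (1 without replicate 3 of scramble -PDGF-AA), 243 to 1472 genes, and 18 to 78 at 2-fold upon ligand in scramble cells, 23 to 168 and 3 to 7 in shSrsf3 cells, and 1 to 6 for the interaction. The interaction with 2 groups was not run, since it needs 4.

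With the replicate block the interaction called 1 gene, and the block changed no call of a member. Deviations of samples with the same number correlated at -0.38 to 0.44 over 18 pairs and those with other numbers at -0.61 to 0.56. The same number thus did not go with a higher correlation. Both extremes were between scramble samples, with replicate 3 without ligand against replicates 1 (0.56) and 2 (-0.61) with ligand. Replicate 2 of scramble +PDGF-AA correlated at 0.41 and 0.44 with replicates 1 and 2 of scramble -PDGF-AA. These are the samples with the lowest mapping rates, and the part of mapping rate in the correlations was not tested.

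Log2 fold changes near 0 that changed sign were these. *Fgf2* between the lines without ligand was 4.35e-05 and *Fgfrl1* -0.0526 in 9 samples. *Fgf2* with ligand was 0.00243 by DESeq2, 0.00252 with its size factors, 0.000841 with 2 groups, and 0.00611 when thinned. Upon ligand in scramble cells *Fgf2* was 0.00549 by DESeq2, 0.00220 by limma-voom, 0.00431 with size factors, 0.00154 with no filter, 0.0727 in 9 samples, 0.00632 with 2 groups, and 0.0175 when thinned. There, *Fgf7* was 0.0317 and *Fgf9* 0.172 in 9 samples, and *Fgf9* 0.288 when thinned. In shSrsf3 cells *Fgfr1* was 0.00267 by DESeq2 and 0.00242 with size factors, *Fgf5* 0.0156 by limma-voom, and *Fgfr2* -0.00397 with no filter. In the interaction *Fgf2* was -0.0119 in 9 samples and *Fgf10* 0.0191 when thinned. The log2 ratio of *Fgfr2* to *Fgfrl1* per kb in scramble -PDGF-AA cells was 0.17 with the main transcript and -0.65 with merged exons.

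With 1 sample left out, the ranges that crossed 0 were -0.0186 to 0.0775 for *Fgfrl1* without ligand and -0.0124 to 0.00483 for *Fgf2* with ligand. Upon ligand they were -0.0312 to 0.0431 for *Fgf2*, -0.0744 to 0.0228 for *Fgf7*, and -0.304 to 0.0435 for *Fgf9* in scramble cells, and -0.18 to 0.121 for *Fgf5*, -0.0270 to 0.151 for *Fgf18*, -0.0163 to 0.00814 for *Fgfr1*, and -0.0414 to 0.0802 for *Fgfr2* in shSrsf3 cells. In the interaction they were -0.148 to 0.0492 for *Fgf10* and -0.000255 to 0.0536 for *Fgfr1*.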
